A study of Homo sapiens with 6 samples.

Results

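Transcripts of the heat shock protein and DNAJ chaperone families were examined in ARPE-19, an established line of human retinal pigment epithelium. Members were chosen by gene symbol alone: the DNAJA, DNAJB and DNAJC genes, the HSPA, HSPB and HSP90A genes, the heat shock factor gene HSF1, the mitochondrial chaperonin genes HSPD1 and HSPE1, HSPH1, CRYAB and the genes BAG1 to BAG5. The endoplasmic reticulum chaperone genes HSPA5, DNAJB9, DNAJB11, DNAJC3 and DNAJC10 were set aside, and HSF2 was not analysed here. On the array, 200 probe sets with a single gene symbol covered 76 members out of 18132 genes. Each gene was read from its brightest probe set, and 60 members were bright enough to test, out of 12221 genes. The choice is wider than the cytosol, because HSPA9, HSPD1, HSPE1, DNAJA3, DNAJC11, DNAJC15, DNAJC19 and DNAJC30 encode mitochondrial proteins and HSPA13, DNAJB12, DNAJB14 and DNAJC16 encode proteins of the endoplasmic reticulum.

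By the labels' protocol, all cells received a GFP plasmid. After 48 h they either were given glucose oxidase at 10 mU/ml for 3 h (labelled H2O2 3H, 3 arrays) or were not (labelled H2O2 0H, 3 arrays). The enzyme makes hydrogen peroxide from the glucose of the medium. Descriptions of the 3 h arrays name a GFP-Satllite alpha construct instead, so construct and treatment cannot be told apart from the labels. No group held for 3 h without enzyme is named. Nor is it stated that replicates were separate cultures, and p-values then measure the spread between these arrays, which may be technical.

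Chaperones hold unfolded proteins in solution and help them fold. HSP70 proteins bind and release short stretches of a client, J domain proteins of the DNAJ classes bring clients to them and speed up their ATP hydrolysis, and BAG and HSP110 proteins exchange the nucleotide. HSP90 acts later, on clients such as kinases and receptors. Under heat or oxidative damage, HSF1 binds heat shock elements, repeats of GAA and its complement TTC, in the promoters of many of these genes.

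The letters of that element were looked for in RefSeq promoter windows (GRCh38.p14, 250 bases before to 50 bases after a start site, here called the start), which were found for 60 of the 76 members. Both strands were covered: GAANNTTC and TTCNNGAA each read the same on either strand, and the longer forms of 3 units (GAANNTTC followed by NNGAA, and TTCNNGAA followed by NNTTC) are each other's reverse complement and contain the shorter ones. A form of 3 units was found in windows of 7 members, against 166 of 27305 genes (0.608%) with a window in the table. GAANNTTC was in 17 of the 60 members and 8.21% of all genes, and TTCNNGAA in 13 members and 9.46% of all genes. The stretches with 3 units are shown because they hold the letters HSF1 is known to bind, with the matching letters in capitals, on the strand of the gene.
HSPA8 near site (chr11:123062171-123062199, minus strand): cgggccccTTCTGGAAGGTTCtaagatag
HSPA8 far site (chr11:123062346-123062374, minus strand): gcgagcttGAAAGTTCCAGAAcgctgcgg
HSP90AA1 (chr14:102087112-102087140, minus strand): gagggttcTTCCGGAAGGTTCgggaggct
HSP90AB1 near site (chr6:44247823-44247851, plus strand): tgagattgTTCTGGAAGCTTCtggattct
HSP90AB1 far site (chr6:44247770-44247798, plus strand): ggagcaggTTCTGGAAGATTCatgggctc
HSPD1 (chr2:197500062-197500090, minus strand): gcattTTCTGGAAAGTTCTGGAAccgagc
HSPA6 (chr1:161524458-161524486, plus strand): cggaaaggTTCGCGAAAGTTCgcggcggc
DNAJB6 (chr7:157336865-157336893, plus strand): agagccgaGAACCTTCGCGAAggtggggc
DNAJA1 (chr9:33025268-33025296, plus strand): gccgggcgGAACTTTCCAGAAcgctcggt
HSPA8 and HSP90AB1 hold a pair of sites each. The first capital lies 55 and 230 bases before the start in HSPA8, 112 and 165 bases before it in HSP90AB1, 88 in HSP90AA1, 74 in HSPA6, 131 in DNAJB6 and 245 in HSPD1, and 3 bases after it in DNAJA1. The HSPD1 run is longer, with 18 letters. The stretches of DNAJB6 and HSPA6 lie outside any annotated gene, and the others lie within the annotated span of their own gene. A match is a description of letters and shows no binding.

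Genes with these letters did not move as one. Of the 6 tested, HSPA8, HSP90AA1 and HSP90AB1 rose, DNAJA1 fell, and HSPD1 and DNAJB6 did not pass the threshold, with a median log2 change of 0.01. Averaged over all their probe sets, HSPA8 (-0.0429) and HSP90AA1 (-0.0595) turned sign and were not called. The HSPA8 average takes in probe sets too dim to test. At its brightest probe set, the HSPA8 call ended when any single array was left out (0.13 to 0.16). Among the other 46 tested members with a window, 9 rose and 17 fell, with a median of -0.14. Over all tested genes 51.3% were called, 20.6% upward and 30.8% downward. "Rose" and "fell" are used only of changes with an adjusted p under 0.05 in limma, Benjamini-Hochberg adjusted over all 12221 genes. Every change is the 3 h mean minus the 0 h mean of deposited log2 values.

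Of the 60 chaperone genes tested, 14 rose and 21 fell, and 25 did not reach the threshold. The shares of 23.3% and 35.0% lie close to the background of 20.6% and 30.8% over all tested genes (51.3% called in either direction). With each array centred on its median, 12 members rose and 28 fell. The counts over all genes moved as well, to 2185 higher and 4310 lower, from 2514 and 3759. The 3 h arrays lay wholly above the 0 h arrays for 16 members (24.8% of all tested genes) and wholly below them for 28 (35.7% of all tested genes). That is 73.3% of the tested members without overlap, against 60.5% of all tested genes. The median log2 change was -0.12 for the members and -0.04 for all tested genes. Sizes were small: increases ran from 1.105-fold to 1.83-fold and decreases from 1.11-fold to 1.72-fold. Replicates were close, with a median SD per tested member of 0.07 at 3 h and 0.05 at 0 h.

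**Figure D1:**
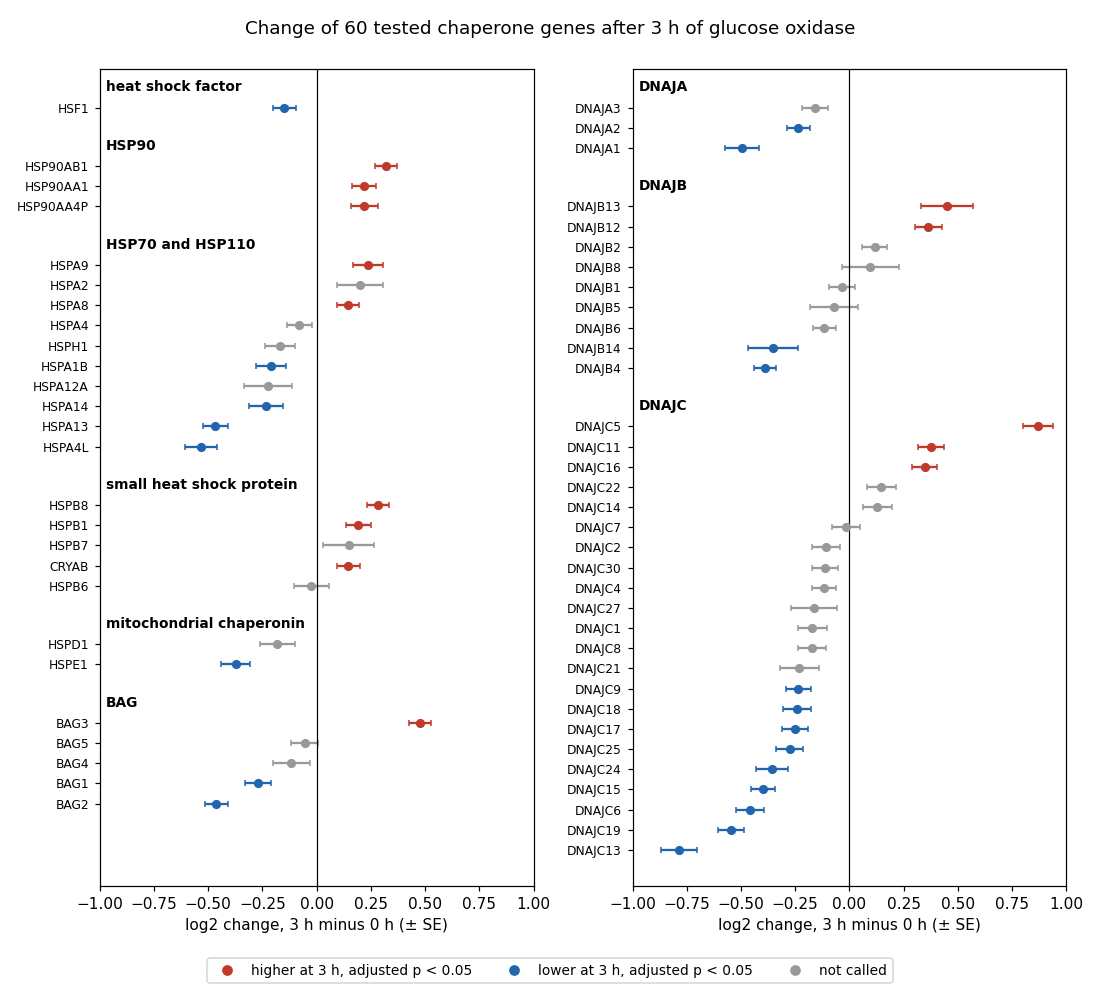
Log2 change (3 h minus 0 h, horizontal axis, with its SE) of the 60 tested chaperone genes, grouped by role; red marks genes that rose, blue those that fell and grey the rest. At their brightest probe sets the 3 HSP90 symbols all lie above 0, the 3 DNAJA genes all lie below it, and the DNAJC class runs from -0.78 to 0.87. HSP90AA1 is at -0.34 at its other probe set, and DNAJA3 is at 0.26 at another of its own. Signal of HSP90AA4P cannot be told apart from that of HSP90AA1.

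**Figure D2:**
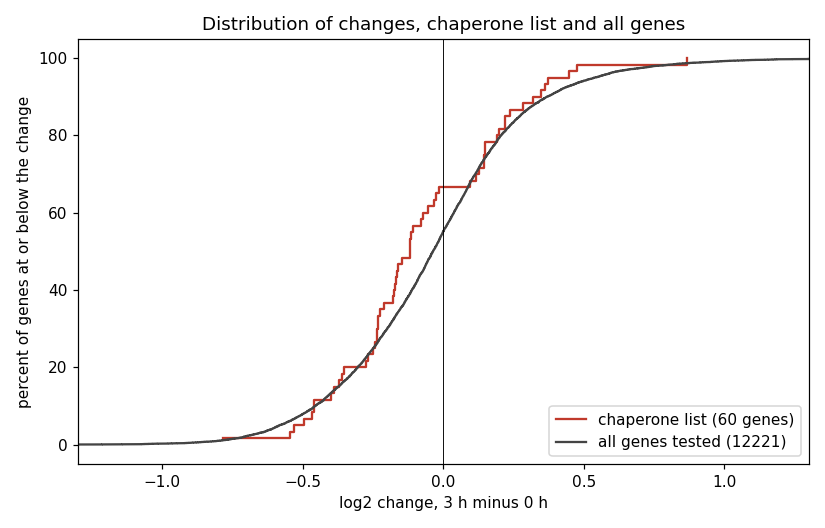
Cumulative share of genes (vertical axis, percent) at or below each log2 change (horizontal axis, 3 h minus 0 h) for the 60 chaperone genes and for all 12221 tested genes. The curve of the chaperone genes runs to the left of that of all genes around 0, with medians of -0.12 and -0.04, and the curves come close again at both ends.

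Technical values also moved with the groups. The log2 difference between 5′ and 3′ actin probe sets was -1.20 ± 0.06 at 3 h and -2.06 ± 0.07 at 0 h (SD, n = 3 each, two-sided exact permutation p = 0.1, the smallest that 3 against 3 arrays allow). Each of the 24 probe sets for poly-A spikes, bacterial transcripts added in fixed amounts, had all 3 h arrays below all 0 h arrays (median change -0.60). Hybridization spikes, a further set of added controls, were lower on every 3 h array at 17 of 18 probe sets (median change -0.31). Treatment and whatever differed in sample preparation or hybridization cannot be told apart. The pigment epithelium marker genes MITF (8.48 at 3 h, 8.15 at 0 h), OTX2 (8.56 at 3 h, 8.37 at 0 h), KRT8 and KRT18 were bright, while RPE65, RLBP1 and TYRP1, which define the mature epithelium, were under the floor of 4.64. Of 10 tested markers of that list 4 rose, the bright ones named above, and 2 fell, SERPINF1 (-0.405) and SLC6A15 (-0.34). BEST1, TYR and TTR were dim, at 4.81, 5.25 and 5.07 at 3 h. The list averaged 6.47 to 6.53 over the 3 h arrays and 6.42 to 6.44 over the 0 h arrays. Of the blood and endothelial markers, PTPRC and CDH5 were under the floor. HBB, PECAM1, CD3E and VWF lay above it, at 5.90, 5.33, 5.23 and 5.10 at 3 h. Of these 4 tested, 0 were called in limma (2 at an unadjusted p under 0.05). The list averaged 4.54 to 4.63 at 3 h and 4.49 to 4.55 at 0 h. Of 4 tested photoreceptor and neuronal markers 2 fell, and their list averaged 5.43 to 5.52 over the 3 h arrays and 5.57 to 5.61 over the 0 h arrays. The part of these values in the results below was not tested.

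HSF1, the factor that switches on heat shock genes, stood at 7.15, 7.19 and 7.10 on the 3 h arrays, against 7.33, 7.31 and 7.25 on the 0 h arrays (log2 values, replicates 1 to 3 here and below). The groups did not overlap, but the fall was slight, at -0.15 (SE 0.05, adjusted p = 0.0485). It no longer passed without replicate 1 or 3 at 3 h (-0.15, -0.13) or any single replicate at 0 h (-0.17 to -0.13).

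Among HSP90 genes, HSP90AB1 was higher at 3 h, and HSP90AA1 had no settled direction. HSP90AB1, the constitutive cytosolic form, had 11.83, 11.76 and 11.76 at 3 h, against 11.46, 11.47 and 11.45 at 0 h. Every 3 h array was above every 0 h array by a margin wider than the spread within either group, a 1.25-fold increase (log2 0.32, SE 0.05, adjusted p = 0.00111). HSP90AA1, the stress-inducible form, had 11.47, 11.50 and 11.58 at 3 h, against 11.31, 11.31 and 11.27 at 0 h. It rose 1.17-fold (adjusted p = 0.00963) without overlap. Its other probe set, not marked as shared with other transcripts, went the other way by -0.34 and was called too (adjusted p = 0.00139 among probe sets, of which 51.4% were called). Averaged over both probe sets it stood at -0.0595 and was not called. The symbol HSP90AA4P, a pseudogene close in sequence to HSP90AA1, rose by 0.22, and signal at its probes cannot be told apart from that of HSP90AA1. Its call ended without replicate 3 at 0 h (0.18). The other HSP90 pseudogene symbols, HSP90AA5P, HSP90AA6P, HSP90AB2P, HSP90AB4P, HSP90AB5P and HSP90AB6P, were under the floor.

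In the HSP70 and HSP110 families, 2 of 10 tested genes rose, 4 fell and 4 did not pass (median -0.19). The shares of 20% and 40% stand beside 20.6% and 30.8% over all tested genes. HSPA8, the constitutive HSP70 of the cytosol, had 13.19, 13.14 and 13.18 at 3 h, against 13.01, 13.03 and 13.05 at 0 h. All 3 h arrays were higher, though only by 0.14 (SE 0.05, adjusted p = 0.0413), and the call ended when any single array was left out (0.13 to 0.16). Of its 6 other probe sets above the floor, 4 were called higher by 0.23 to 0.34. A dim one, at 4.68 at 3 h and 5.23 at 0 h, was called lower by -0.55, and the average over all probe sets of HSPA8 stood at -0.0429. That average takes in probe sets under the floor, at -1.07 and -0.02. HSPA9, the mitochondrial HSP70, had 11.29, 11.30 and 11.47 at 3 h, against 11.07, 11.09 and 11.19 at 0 h. The 3 h arrays were all higher, a rise of 0.24 (adjusted p = 0.0199) that did not pass without replicate 3 at 3 h (0.18) or replicate 1 or 2 at 0 h (0.21, 0.22).

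The largest changes among tested genes of these families were decreases. HSPA4L, an HSP110 exchange factor, had 7.23, 7.30 and 7.43 at 3 h, against 7.94, 7.83 and 7.78 at 0 h. It was 1.45-fold lower (log2 -0.53, SE 0.07, adjusted p = 0.000498), with both of its other probe sets called lower (-0.36 and -0.21). HSPA13, an HSP70 of the endoplasmic reticulum, had 9.36, 9.40 and 9.44 at 3 h, against 9.93, 9.79 and 9.88 at 0 h. The groups were far apart, a fall of 1.38-fold (log2 -0.47, adjusted p = 0.000322) that was smaller, at -0.25, when probe sets marked as shared with other transcripts were dropped. HSPA14, which works at the ribosome with DNAJC2, fell by 0.23. Its adjusted p passed 0.05 when replicate 1 or 2 at 3 h (-0.16, -0.25) or replicate 1 or 2 at 0 h (-0.23, -0.20) was left out. Its 3 other probe sets stood at 0.00, 0.01 and -0.11, none of them called, and their average with the brightest at -0.08 (adjusted p = 0.285).

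Among stress-inducible HSP70 genes, HSPA1B had 8.27, 8.15 and 8.12 at 3 h, against 8.42, 8.29 and 8.47 at 0 h. The 3 h values were lower, narrowly, with a change of -0.21 (adjusted p = 0.0335) that did not pass without replicate 2 or 3 at 3 h (-0.19, -0.18) or replicate 1 or 3 at 0 h (-0.19, -0.17). HSPA1B is nearly identical to HSPA1A. Of 4 probe sets that carry both symbols, 1 was called, lower by -0.31, and the others stood at 0.19, 0.13 and -0.04, so the direction of this gene pair is uncertain. HSPA6, a gene nearly silent without stress in human cells, had 4.84, 4.59 and 4.71 at 3 h, against 4.51, 4.53 and 4.39 at 0 h. Its 3 h values were all higher, but the mean over the 6 arrays lay just under the floor, so it was not tested. A probe set labelled HSPA6 and HSPA7, also under the floor, overlapped between the groups (4.42 at 3 h, 4.50 at 0 h).

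HSPA4, a further HSP110 exchange factor, stood at -0.08 (adjusted p = 0.269), and HSPA2 at 0.20 (adjusted p = 0.149, but called without replicate 2 at 3 h, at 0.32). HSPH1, the HSP110 gene of the heat shock response, had 9.87, 9.87 and 10.08 at 3 h, against 10.14, 10.08 and 10.11 at 0 h. Replicate 3 at 3 h overlapped the 0 h values, and the change of -0.17 did not pass (adjusted p = 0.0735). Without that replicate it was called at -0.24.

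Small heat shock proteins bind unfolding proteins without ATP. Of 5 tested, 3 rose and 0 fell in limma (0 fell at an unadjusted p under 0.05 too), with a median of 0.15. Over all tested genes 20.6% rose and 30.8% fell. HSPB8, which works with BAG3 in the autophagy of damaged clients, had 11.04, 11.02 and 11.06 at 3 h, against 10.78, 10.77 and 10.72 at 0 h. The values were tight in both groups and the rise was 1.22-fold (log2 0.28, SE 0.05, adjusted p = 0.00194), with 0.52 at its other probe set. HSPB1, also called HSP27, rose by 0.19 (adjusted p = 0.0231), with 11.01, 10.92 and 10.99 at 3 h and 10.78, 10.84 and 10.72 at 0 h. It lost its call when replicate 1 or 3 at 3 h (0.17, 0.18) or replicate 1 or 3 at 0 h (0.19, 0.16) was left out. CRYAB, the alpha-B crystallin gene, rose by 0.15 (adjusted p = 0.0443), a call lost when replicate 1 or 3 at 3 h (0.14, 0.13) or any replicate at 0 h (0.14 to 0.16) was left out, and in the average over its probe sets (0.13, adjusted p = 0.131). The other CRYAB probe set in that average was under the floor. HSPB6 and HSPB7 overlapped between the groups.

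The mitochondrial chaperonin is built from HSPD1, its barrel, and HSPE1, its lid, whose genes lie head to head. HSPE1 had 7.75, 7.90 and 7.97 at 3 h, against 8.25, 8.25 and 8.24 at 0 h. It was 1.29-fold lower (log2 -0.37, SE 0.07, adjusted p = 0.00189), and the probe sets labelled HSPE1 together with its read-through gene stood at -0.54 and -0.44. HSPD1 had 11.19, 11.08 and 11.18 at 3 h, against 11.27, 11.22 and 11.51 at 0 h. The 3 h values lay just below the 0 h values, and the change of -0.18 did not pass (adjusted p = 0.0993). Its 4 other probe sets above the floor ran from -0.05 to 0.30, the highest of them called, so HSPD1 has no settled direction.

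BAG3, a co-chaperone that HSF1 induces and that carries HSP70 clients to autophagy, had 10.07, 10.01 and 10.04 at 3 h, against 9.58, 9.57 and 9.54 at 0 h. The groups were far apart beside the spread within them, a 1.39-fold increase (log2 0.48, SE 0.05, adjusted p = 0.000172). BAG2, which holds back the ubiquitin ligase that works with HSP70, had 8.82, 8.80 and 8.86 at 3 h, against 9.28, 9.27 and 9.31 at 0 h. It was equally well separated in the other direction, 1.38-fold lower (log2 -0.46, SE 0.05, adjusted p = 0.000193), and its other probe set fell by 0.90. BAG1, which links HSP70 to the proteasome, fell by 0.27 (adjusted p = 0.00561), but a probe set about as bright stood at 0.11 and the average over its probe sets at -0.15 (adjusted p = 0.0245). BAG4 and BAG5 stood at -0.12 and -0.05 and overlapped between the groups (adjusted p = 0.282 and 0.486).

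**Figure D3:**
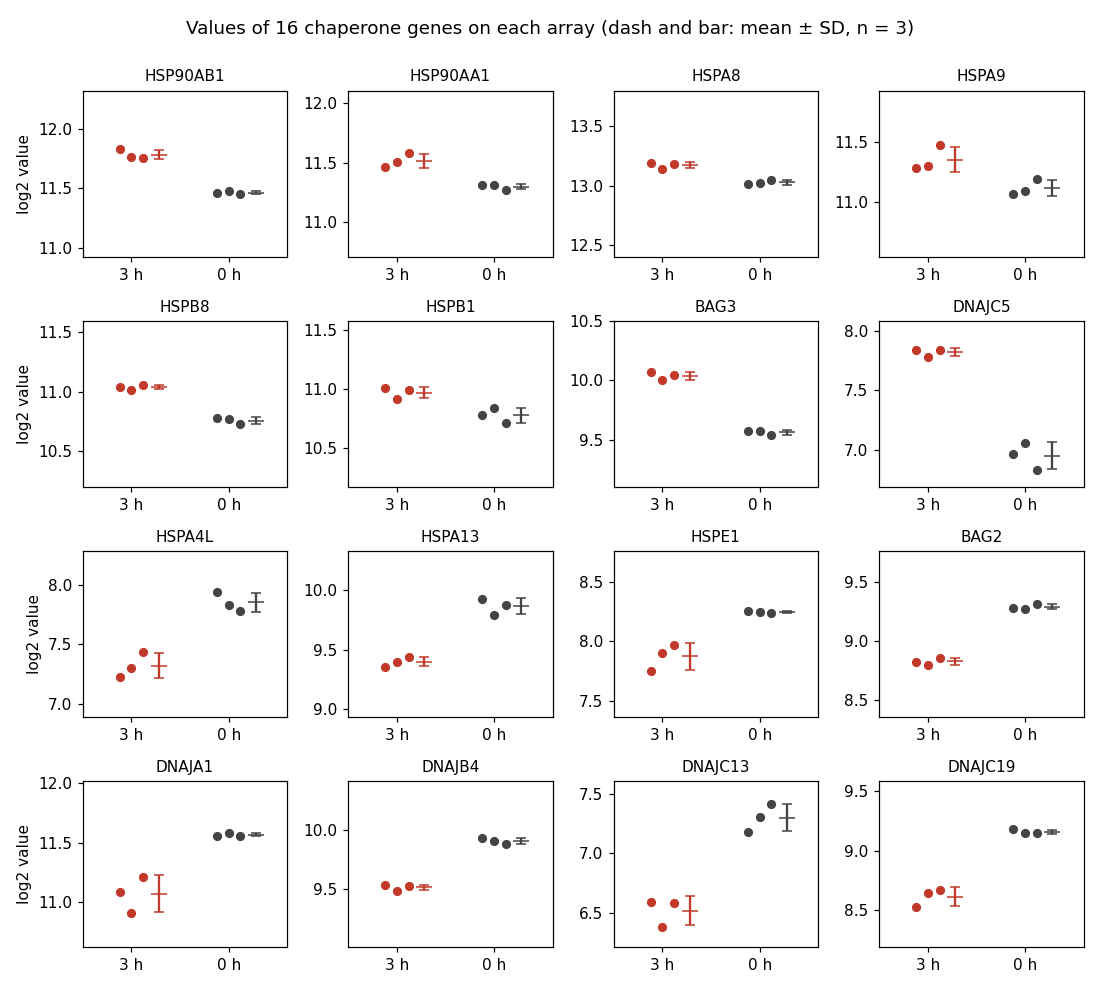
Log2 values of 16 chaperone genes on each array, 3 h in red on the left of each panel and 0 h in grey on the right, with the mean ± SD (n = 3); every panel spans the same range of log2 values. The upper 8 genes, such as BAG3 and DNAJC5, are higher at 3 h, and the lower 8, such as BAG2 and DNAJC13, are lower. The groups do not overlap in any panel, but all 16 genes were picked from the called members. Over all tested genes 60.5% do not overlap. Each panel shows the brightest probe set, and the other one of HSP90AA1 was called lower, at -0.34.

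The J domain genes held both the largest increase and the largest decrease of the tested members. Of 3 tested genes of class A, whose proteins are the general partners of HSP70, 2 fell. The third, DNAJA3, lay below the 0 h values on every 3 h array at its brightest probe set and at another. Over all tested genes 30.8% fell and 35.7% lay wholly below. A probe set of DNAJA3 lay wholly above, so its direction is unsettled. DNAJA1 had 11.09, 10.91 and 11.22 at 3 h, against 11.56, 11.58 and 11.56 at 0 h. The 3 h arrays were more spread than the 0 h arrays but all lower, a fall of 1.41-fold (log2 -0.49, SE 0.08, adjusted p = 0.00103). Its 4 other probe sets were also lower, by -0.05 to -0.45, and 2 of them were called; the average over all was -0.27. DNAJA2 fell by 0.24 (adjusted p = 0.00651). DNAJA3, a mitochondrial J protein, stood at -0.16 (adjusted p = 0.0522), with a probe set called at 0.26 and another called at -0.18.

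Of 9 tested class B genes 2 rose, 2 fell and 5 did not pass. That is 22.2% in each direction, beside 20.6% upward and 30.8% downward over all tested genes. DNAJB1, the HSP40 partner of HSP70 and a standard heat shock target, had 9.13, 9.26 and 9.11 at 3 h, against 9.20, 9.15 and 9.25 at 0 h. The groups overlapped (-0.03, adjusted p = 0.666), although 1 of its other probe sets was called at 0.17. DNAJB4, a close relative, had 9.53, 9.49 and 9.52 at 3 h, against 9.93, 9.90 and 9.88 at 0 h. It was 1.31-fold lower with clear separation (adjusted p = 0.000403). DNAJB6, which suppresses protein aggregation, stood at -0.12 (adjusted p = 0.0958).

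The paired membrane J proteins of the endoplasmic reticulum went opposite ways. DNAJB12 rose by 0.36 (adjusted p = 0.00140), and its other 5 probe sets were called higher too, by 0.30 to 0.51. DNAJB14 fell by 0.35, with an SD of 0.26 at 3 h, and it lost its call when replicate 1 or 2 at 3 h (-0.38, -0.21) or any replicate at 0 h (-0.38 to -0.32) was left out, or when probe sets marked as shared were dropped (-0.18). DNAJB13, known from cilia and sperm tails, rose by 0.45 (adjusted p = 0.0132) from dim signal, 6.46 ± 0.21 at 3 h and 6.01 ± 0.17 at 0 h (SD, n = 3 each). Averaged with its other probe set, which was under the floor, it stood at 0.17 (adjusted p = 0.256).

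Class C, whose members share little beyond the J domain, had 3 genes higher and 9 lower of 22 tested (median -0.17). These shares of 13.6% and 40.9% stand beside 20.6% and 30.8% over all tested genes. DNAJC5, the cysteine string protein of secretory vesicles, had 7.84, 7.78 and 7.84 at 3 h, against 6.97, 7.06 and 6.83 at 0 h. It was 1.83-fold higher (log2 0.87, SE 0.07, adjusted p = 4.78e-05), the largest change among the tested members, and its 3 other probe sets were called higher by 0.42 to 0.56, the brightest of them (0.56) being the one read when shared probe sets were dropped. DNAJC11 of the mitochondrial membranes rose by 0.37. DNAJC16 rose by 0.35, but its other probe set above the floor stood at -0.12 and the average over all its probe sets at 0.16 (adjusted p = 0.0180).

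DNAJC13, which works on endosomes, had 6.59, 6.37 and 6.58 at 3 h, against 7.18, 7.30 and 7.41 at 0 h. It was 1.72-fold lower (log2 -0.78, SE 0.08, adjusted p = 0.000157), the largest decrease among the tested members, and had no other probe set. DNAJC6, the auxilin that strips clathrin from vesicles, had 6.46, 6.64 and 6.64 at 3 h, against 7.03, 7.08 and 7.01 at 0 h. It fell by 0.46 (adjusted p = 0.000602), and its other 2 probe sets were under the floor.

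DNAJC19 and DNAJC15 are related J proteins of the motor that pulls proteins into mitochondria. DNAJC19 had 8.52, 8.65 and 8.67 at 3 h, against 9.18, 9.15 and 9.15 at 0 h. It was 1.46-fold lower (adjusted p = 0.000173), and its other probe set fell by 0.66. DNAJC15 had 10.35, 10.37 and 10.30 at 3 h, against 10.73, 10.68 and 10.80 at 0 h, a fall of 0.40. Both were separated between the groups at each of their probe sets called. DNAJC24 (diphthamide synthesis), DNAJC25, DNAJC17, DNAJC18 and DNAJC9, a histone co-chaperone, fell by 0.36, 0.28, 0.25, 0.24 and 0.24. Averaged over all their probe sets, DNAJC18 was not called (-0.13, adjusted p = 0.0887), and DNAJC9 turned to 0.0462 (adjusted p = 0.446). The DNAJC9 average takes in probe sets under the floor, at 0.25 and 0.31, while 1 of its other probe sets above the floor was called at -0.27.

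The remaining 16 tested members that did not pass were HSPA12A, HSPB6, HSPB7, DNAJB2, DNAJB5, DNAJB8, DNAJC1, DNAJC2, DNAJC4, DNAJC7, DNAJC8, DNAJC14, DNAJC21, DNAJC22, DNAJC27 and DNAJC30. At their brightest probe sets the changes ran from -0.23 to 0.15, the lowest adjusted p was 0.0521, and the groups overlapped for 11. Other probe sets were called higher for DNAJB2 (1.00 and 0.47), DNAJB5 (0.375 and 0.377) and DNAJC14 (0.56). A probe set of DNAJC27 was called lower (-0.34). Over all probe sets above the floor 51.4% were called. Besides HSPA6 and the 6 pseudogene symbols, the members under the floor were DNAJA4, DNAJB3, DNAJB7, DNAJC12, DNAJC28, HSPA12B, HSPA1L, HSPB3 and HSPB9.

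Probe sets of one gene disagreed for several members. Of 40 tested members with over 1 probe set above the floor, 23 had the same sign at all of them (57.5%, against 62.6% of 7120 genes). In 5 members, HSP90AA1, HSPA8, HSPH1, DNAJA3 and BAG5, probe sets were called in both directions (12.5%, against 6.05% of those genes). HSPH1 had 8 probe sets above the floor, from -0.39 to 0.62, with 3 called lower and 1 higher. A probe set of HSPA4 was called at 0.95 while its brightest stood at -0.08, a probe set of DNAJB2 at 1.00 while its brightest stood at 0.12, and a probe set of DNAJB6 at 0.67. The shift of the 5′ to 3′ difference of actin lies beside these values, and its part in them was not tested.

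**Figure D4:**
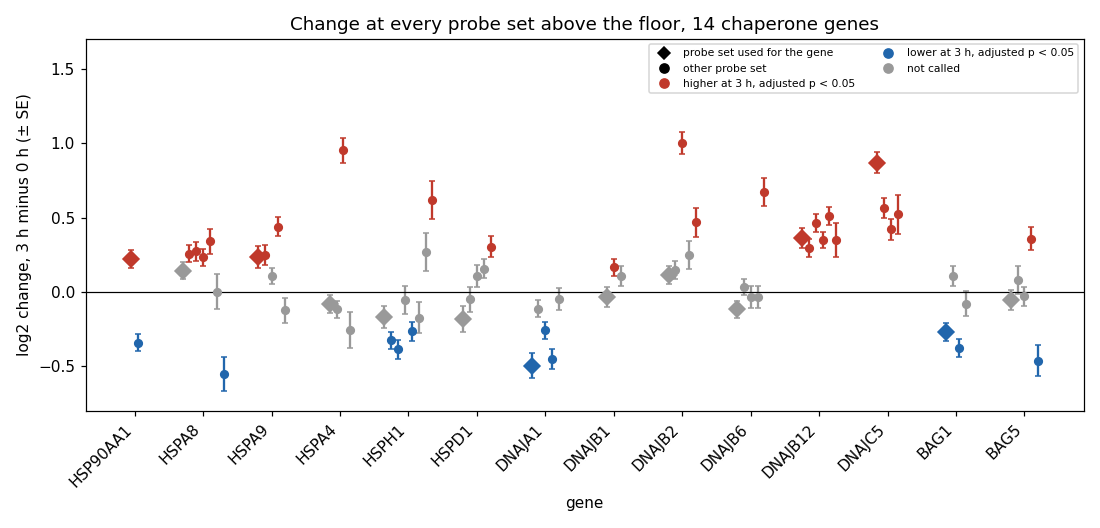
Log2 change (3 h minus 0 h, vertical axis, with its SE) at each probe set above the floor for 14 chaperone genes; diamonds are the probe sets that stand for the gene, circles are the others, and colours mark calls as in the plot of all tested members. All probe sets of DNAJB12 and DNAJC5 lie above 0, while those of HSP90AA1, HSPA8, HSPH1 and BAG5 lie on both sides.

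Co-chaperones outside these families also moved in both directions. Of 55 tested, 11 rose and 18 fell, with a median of -0.06, beside 51.3% called and a median of -0.04 over all genes. Among 29 partners of HSP90 and HSP70, 9 rose and 7 fell. SGTA, which hands membrane proteins to the endoplasmic reticulum, had 8.33, 8.44 and 8.27 at 3 h, against 7.75, 7.81 and 7.63 at 0 h, and rose by 0.62. Its close relative SGTB had 7.07, 7.20 and 7.19 at 3 h, against 7.83, 7.97 and 7.75 at 0 h, and fell by 0.70. These relatives were each separated between the groups, in opposite directions.

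STIP1, the bridge between HSP70 and HSP90, rose by 0.39 (adjusted p = 0.000663), TSC1 by 0.44 and NUDCD3 by 0.38, while NUDCD1 and NUDCD2 fell by 0.61 and 0.43. Of 9 subunits of the cytosolic chaperonin TRiC 1 rose and 3 fell. Prefoldin passes nascent actin and tubulin to TRiC. Of 8 prefoldin and prefoldin-like genes, 5 fell and 0 rose in limma (median -0.22, with 0 higher at an unadjusted p under 0.05). Of the prefoldin-like genes among them, URI1 fell (-0.35) and PDRG1 was not called (-0.03). Of 9 mitochondrial partners 1 rose, the protease gene LONP1 by 0.43, and 3 fell. All these counts stand beside shares of 20.6% upward and 30.8% downward over all tested genes.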

How the data were processed

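The authors deposited 1 log2 value for each of 49372 probe sets on 6 Affymetrix arrays. The log2 scale is inferred from the values themselves (array medians of 5.30 to 5.34). MAS5 and RMA are named, per the submitters' processing notes, and no further step is stated. Such normalization hides a change of total RNA.

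Groups came from the titles. Members, lists and tests were chosen with earlier results of these data known. The 79 control probe sets were left out. Each gene was read from its brightest probe set with 1 symbol in the platform annotation, and genes under the 40th percentile of probe sets (4.64) were not tested. The contrast of 3 h against 0 h was fitted in limma 3.58.1 (lmFit, eBayes; R 4.3.3), Benjamini-Hochberg adjusted over 12221 genes, or over 29576 probe sets above the floor for single probe sets. With 3 arrays a group, their number limits the precision. The fit was also run on simulated data with independent noise and few changed genes. In these data 51.3% of genes were called and controls moved with the groups, so that run does not vouch for the calls here. Named members are a fixed set of main family members and every called one. No protein sequences were used here. Figures were drawn with matplotlib 3.10.9.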

Additional observations from a re-analysis of the deposited data

Results flagged for a closer look

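A pair of probe sets outside the comparison, because they carry several symbols, were higher on every 3 h array than on any 0 h array. The probe set labelled HSP90AB1 and HSP90AB3P was higher by 0.31 (log2, adjusted p = 0.00342 in limma over probe sets), beside 0.32 for HSP90AB1 itself. The probe set labelled HSPD1 and HSPD1P5 was higher by 0.29 (adjusted p = 0.0127), beside -0.18 and no call for the brightest probe set of HSPD1. The cause was not tested.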

How the results depend on the processing

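The counts of members that rose (14) and fell (21) stayed within 1.5 times under other normalization, filters, probe set rules, variance moderation and array weights, at 10 to 14 and 14 to 28. In those runs 46 to 76 members were tested, and over all genes 2185 to 2902 rose and 2964 to 4310 fell. Leaving out 1 array gave 10 to 14 members higher and 17 to 22 lower, of 60 tested. Counts over all genes in these runs are not given here, so they cannot be read against a background. At a threshold of 0.01, 8 members rose and 16 fell, with 1732 and 2722 over all genes. With a minimum of 1.5-fold, 1 member rose (DNAJC5) and 1 fell (DNAJC13), and over all genes 502 rose and 602 fell, against 2514 and 3759. Leaving out the pseudogene symbols, chosen after seeing the data, gave 13 and 21. With the replicate number as a block, 11 members rose and 19 fell, with 2336 and 3502 over all genes. Same-numbered arrays deviated from their group means with correlations of -0.19 to -0.02, so no shared deviation was seen. Such correlations cannot show whether same-numbered arrays came from one culture or batch. Averaged over all probe sets, also those under the floor, signs turned for DNAJB1 (0.0797), DNAJB6 (0.10), DNAJC9 (0.0462), HSP90AA1 (-0.0595), HSPA4 (0.125), HSPA8 (-0.0429) and HSPD1 (0.05). HSP90AA1 stood at -0.34 once probe sets marked as shared were dropped. The cause of these turns was not tested. Of the 35 called members, 22 kept direction and call under every alternative that tested them, leaving aside the 0.01 threshold, at which 11 lost their call, and the 1.5-fold minimum, run for counts only. Signal near the floor left HSPA6 and 15 other members untested.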
